A study of Mus musculus with 8 samples.

Results

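The enzymes that make and break down cyclic AMP and cyclic GMP, the kinases these messengers switch on, and the transcription factors named for the cyclic AMP response element were followed in primary hepatic stellate cells after knockdown of PAK4. They comprised 57 protein-coding genes of the 45777 genes in the deposited table, chosen by symbol alone, with no measured value used. There were 10 adenylyl cyclases, 4 subunits of soluble guanylyl cyclase and 24 genes named as phosphodiesterases, which need not all encode an active enzyme. The rest were 4 regulatory and 2 catalytic subunits of protein kinase A (PKA), 2 genes of protein kinase G (PKG) and 11 CREB-named factors. The siPAK4 group held 4 libraries of stellate cells transfected with siRNA against PAK4, a p21-activated kinase that acts on the actin cytoskeleton, and the siControl group held 4 libraries of cells given a control siRNA. Cells of both groups came from male wild-type C57BL/6 mice, all libraries carry the same batch label, and the study silenced PAK4 while the cells were activating. Because nothing in the labels tells whether replicates are different animals or cultures, each p-value reflects only how much these libraries vary, and that variation may be technical. The sources used here give neither the siRNA sequence nor the time after transfection.

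Cyclic AMP is made by adenylyl cyclases and cyclic GMP by guanylyl cyclases, and phosphodiesterases hydrolyse both. Cyclic AMP releases the catalytic subunits of PKA from their regulatory subunits, and the freed kinase phosphorylates CREB and many proteins of the cytoskeleton. Cyclic GMP, made by soluble guanylyl cyclase in response to nitric oxide, activates PKG. Hepatic stellate cells are contractile liver pericytes that store vitamin A and turn into matrix-producing myofibroblasts, and in these cells agents that raise either nucleotide are known to favour relaxation.

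Read counts summed to between 55728583 and 61535063 per library. The targeted gene was measured first: Pak4 stood at 7.73, 5.7, 5.17 and 6.69 CPM (reads scaled to the size of the library) in siPAK4 and at 18.6, 17.7, 16.4 and 16.2 CPM in siControl, a log2 fold change of -1.44 ± 0.118 (SE, edgeR adjusted p = 9.4e-06). The groups separated on the first principal component of log2 CPM, which held 57.9% of the variance, and siPAK4 replicate 3 lay apart from the other 7 libraries on the second, which held 13.3%. The cells were labelled stellate, and Dcn (479 CPM in siPAK4, 425 CPM in siControl) and Pdgfra (127 CPM in siPAK4, 115 CPM in siControl) were well detected, but Lrat, the enzyme that esterifies vitamin A in quiescent stellate cells, averaged 0.216 CPM in siPAK4 and 0.0269 CPM in siControl. RNA of other liver cells was abundant. The macrophage and Kupffer cell markers (15 genes, of which 0 were higher and 9 lower among 14 tested) summed to 5325 to 8623 CPM in siPAK4 and 9417 to 10930 CPM in siControl. Most of that sum was Lyz2 (4850 CPM on average in siPAK4, 7810 CPM in siControl). Among the 9 lower genes, the falls were largest for Vsig4, Cd5l and Cx3cr1 (log2 fold change -2.92, -2.75 and -2.26). The others were C1qa, C1qb, C1qc, Marco, Lyz2 and Csf1r. Adgre1, Cd68, Fcgr1 and Ptprc did not pass, and nor did the scarce Timd4 (log2 fold change -2.02, edgeR adjusted p = 0.0785). The endothelial markers (5 higher and 7 lower among 15 tested) summed to 4557 to 6527 CPM in siPAK4 and 7203 to 7487 CPM in siControl, against 1054 to 1329 CPM in siPAK4 and 1679 to 2115 CPM in siControl for the stellate cell markers (0 higher and 6 lower among 14 tested). Dcn and Pdgfra did not pass. The 6 lower stellate markers were Acta2 (40.4 CPM in siPAK4, 125 CPM in siControl), Col1a1 (122 CPM in siPAK4, 328 CPM in siControl), Col1a2, Col3a1, Des and Pdgfrb. Portal fibroblast and mesothelial markers summed to 427 to 540 CPM in siPAK4 and 969 to 1203 CPM in siControl (0 higher, 7 lower among 10 tested), and those of vascular smooth muscle to 130 to 173 CPM in siPAK4 and 163 to 176 CPM in siControl (1 higher, 7 lower among 10 tested). Library siPAK4 replicate 3 had the highest macrophage sum (8623 CPM) and the lowest endothelial sum (4557 CPM) of its group. Hepatocyte markers summed to at most 333 CPM in siPAK4 and 376 CPM in siControl, nearly all of it Trf, with Apoc3 and Cyp3a11 at 0 on average in siControl. Of the 6 tested, 3 were higher in siPAK4 and 1 lower (median log2 fold change 2.12): Alb averaged 7.83 CPM in siPAK4 and 1.75 CPM in siControl (edgeR adjusted p = 0.000309), Serpina1c and Fga were also higher, by 2.61 and 2.07 on the log2 scale (edgeR adjusted p = 0.000382 and 0.0241), and Trf was lower, at 286 CPM in siPAK4 and 363 CPM in siControl (edgeR adjusted p = 0.0327; 0.0855 with library totals alone). Cholangiocyte markers summed to 1033 to 1502 CPM in siPAK4 and 1137 to 1610 CPM in siControl, nearly all of it Spp1, with 1 of 5 tested lower. Lymphocyte markers reached at most 1.31 CPM in siPAK4 and 1.29 CPM in siControl, and neutrophil markers 21.8 CPM in siPAK4 and 19.1 CPM in siControl, and none of the 3 and 2 tested passed. Ly6g and Retnlg, neutrophil markers, had 0 reads. The part that the mixture of cells plays in the results was not tested, and in these bulk libraries fewer cells of a type and less RNA per cell cannot be told apart.

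Within this set, PAK4 knockdown went with lower RNA for the adenylyl cyclases Adcy1, Adcy3 and Adcy5, both alpha subunits of soluble guanylyl cyclase and the phosphodiesterases Pde1a and Pde4d, and with higher RNA for the PKA regulatory subunit Prkar2b, the phosphodiesterases Pde7b and Pde10a and the CREB-linked factors Crebrf and Crebzf. Of the 57 genes, 51 had enough reads to be tested, and 28 of those passed the adjusted p of 0.05, which is 54.9%, beside 26.9% of all 17975 genes tested. In siPAK4, 8 were higher, where 12.4% of all genes tested were, and 20 were lower, where 14.5% were. The median log2 fold change was -0.15 over the 51 genes and 0.01 over all genes tested. Values of the groups did not overlap for 27 of the 51, beside 28.8% of all genes. Changes were mostly moderate: 4 of the 51 genes (Adcy1, Adcy5, Gucy1a1 and Pde1a) passed the test with a change of at least 2-fold, which 4.62% of all genes did. With libraries scaled by their totals alone, 9 of the 51 were higher and 9 lower in siPAK4, in place of 8 and 20, because 11 falls no longer passed and Pde7a was added to the rises. That scaling called 31.9% of all genes tested, so the set stood much less above all genes than in the reported fit. The calls of 5 higher genes (Crebrf, Crebzf, Pde7b, Pde10a and Prkar2b) and 7 lower ones (Adcy1, Adcy3, Adcy5, Creb3l2, Gucy1a1, Pde1a and Pde4d) held in every alternative fit that could test them.

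**Figure D1:**
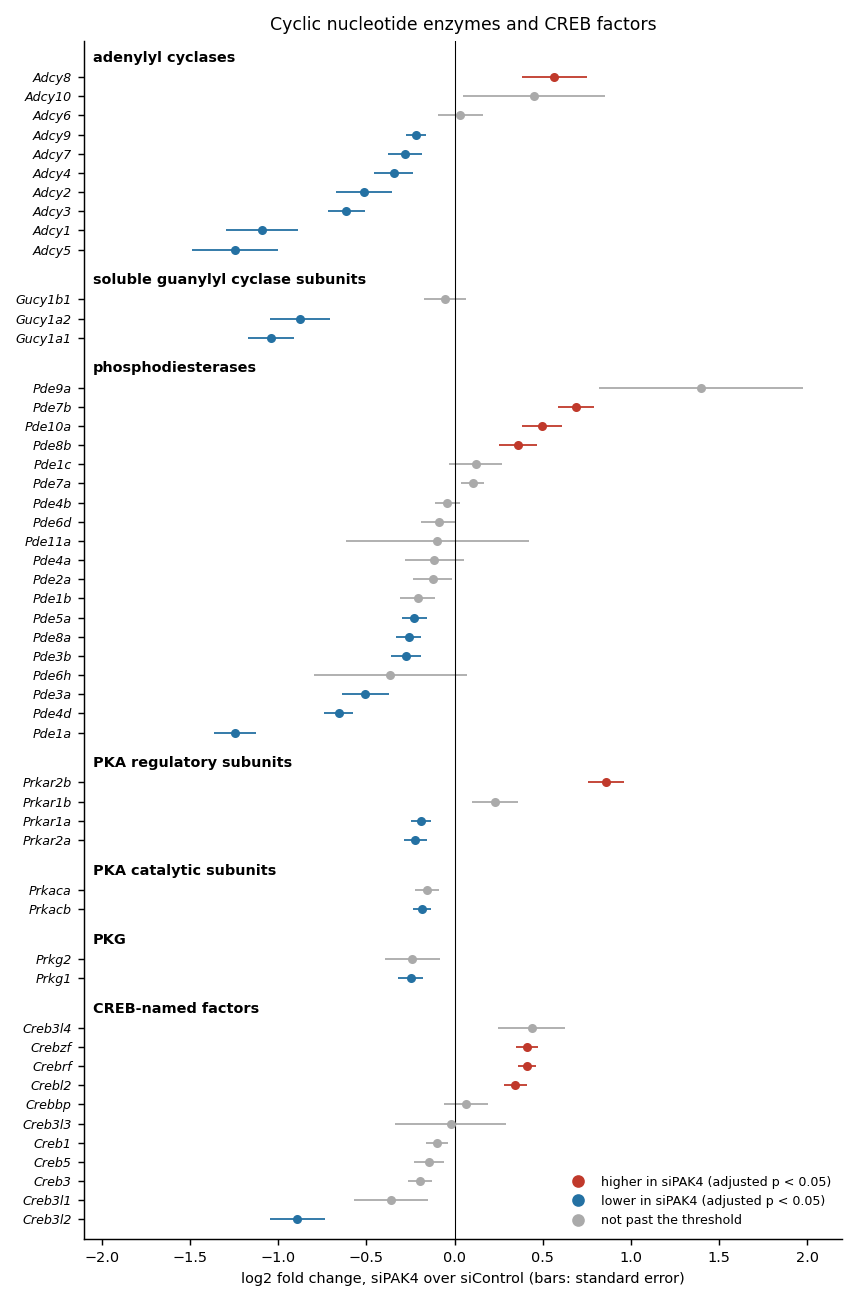
Log2 fold change, siPAK4 over siControl, of the 51 tested genes by family (x axis), with the standard error as a bar. Red points are the 8 genes higher in siPAK4, blue points the 20 lower ones and grey points the 23 that did not pass the adjusted p of 0.05. Pde1a and Adcy5 lie farthest to the left among the called genes, near -1.24, and Prkar2b farthest to the right, at 0.86.

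The 6 genes without a test were scarce. Pde6a and Pde6c, subunits of the photoreceptor phosphodiesterase, had 0 reads in every library, which allows up to 3 reads per library for counting error alone. Gucy1b2, Pde6b, Pde6g and Pde4c had between 0 and 28 reads in a library. Among the tested genes, levels scaled to gene length ran over several orders of magnitude. The highest was Pde2a, with 254 ± 55.6 TPM (the deposited values scaled to depth and gene length) in siPAK4 and 268 ± 3.52 TPM in siControl (SD, n = 4 each), followed by Prkar1a, Pde4b and Creb3. Of these, Pde4b (114 ± 15.4 TPM in siPAK4, 113 ± 6.52 TPM in siControl) and Creb3 (99.0 ± 7.34 TPM in siPAK4, 110 ± 5.42 TPM in siControl) are neighbours in the order that did not differ beyond their spread. Next came Prkar2b, Prkacb and Creb3l2, and Pde11a was lowest.

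Of the 10 adenylyl cyclase genes, 7 fell in siPAK4, Adcy8 rose, and Adcy6 and Adcy10 did not pass the test, so 80.0% were called, beside 26.9% of all genes tested. With library totals alone the falls of Adcy2, Adcy4, Adcy7 and Adcy9 no longer passed, which left 3, those of Adcy1, Adcy3 and Adcy5. The median log2 fold change was -0.31. The summed level of the family was 107 ± 8.07 TPM in siPAK4 and 125 ± 4.44 TPM in siControl (SD, n = 4 each), with no overlap. Its composition by TPM stayed dominated by Adcy7 (42.3% in siPAK4, 42.8% in siControl), Adcy4 (25.9% in siPAK4, 27.3% in siControl) and Adcy6 (18.4% in siPAK4, 15.1% in siControl).

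Among the cyclases that calcium and calmodulin stimulate, Adcy1, best known from neurons, was scarce and fell by 53.1%. Adcy1 measured 0.778, 1.07, 1.15 and 1.29 CPM in siPAK4 and 2.04, 3.06, 2.1 and 1.96 CPM in siControl. Every siPAK4 library was below every siControl library (log2 fold change -1.09 ± 0.205 SE, edgeR adjusted p = 0.00226). Adcy3, the cyclase known from olfactory neurons and fat, stood at 9.8, 10.8, 9.07 and 13.2 CPM in siPAK4 and at 16.6, 16.8, 16.1 and 16.2 CPM in siControl. The siControl libraries lay within a narrow band above all siPAK4 libraries, and the log2 fold change was -0.61 ± 0.106 (SE, edgeR adjusted p = 0.00136). Adcy8, chosen after its values were seen because its mean is under 1 CPM, went the other way, at 0.932 to 1.09 CPM in siPAK4 and 0.601 to 0.759 CPM in siControl. Its rise (log2 fold change 0.57, edgeR adjusted p = 0.0418) was lost without any one of 7 libraries, siControl replicate 1 being the exception (edgeR adjusted p = 0.0558 to 0.0981 in those 7 fits).

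All 3 cyclases that G-protein beta-gamma subunits stimulate (Adcy2, Adcy4 and Adcy7) fell. Adcy7, the most abundant adenylyl cyclase here and known from blood cells, stood at 106, 99.2, 142 and 122 CPM in siPAK4 and at 133, 144, 150 and 143 CPM in siControl. Replicate 3 of siPAK4, which also had the highest macrophage sum of its group, lay inside the siControl range. The log2 fold change was -0.28 ± 0.0969 (SE, edgeR adjusted p = 0.04995), and -0.39 without that library (edgeR adjusted p = 0.000903), while leaving out any of the other 7 libraries ended the call (edgeR adjusted p = 0.0575 to 0.139). Adcy4 measured 52.5, 44.3, 34 and 44.8 CPM in siPAK4 and 59.1, 57.8, 50 and 56.1 CPM in siControl. Its lowest value was in the same siPAK4 replicate 3, which had the lowest endothelial sum. The groups overlapped in part (log2 fold change -0.35 ± 0.11 SE, edgeR adjusted p = 0.0372). A link of Adcy7 or Adcy4 to these marker sums was not tested. Adcy2, a low-abundance member of the same subgroup, read 2.13, 1.89, 1.91 and 2.11 CPM in siPAK4 and 2.46, 3.2, 3.46 and 2.35 CPM in siControl. The groups did not overlap (log2 fold change -0.51 ± 0.157 SE, edgeR adjusted p = 0.0303). Without siPAK4 replicate 2, siControl replicate 2 or siControl replicate 3 the Adcy2 call was lost (edgeR adjusted p = 0.0819 to 0.0937), and the Adcy4 call was lost without siPAK4 replicates 2 or 4 or siControl replicates 1, 2 or 4 (edgeR adjusted p = 0.067 to 0.0929).

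Of the cyclases that calcium inhibits, Adcy5 fell and Adcy6 did not pass the test. Adcy5, chosen after its values were seen, was at 0.518, 0.697, 0.582 and 0.511 CPM in siPAK4 and at 1.28, 0.983, 1.97 and 1.24 CPM in siControl. Although scarce, it did not overlap between the groups and fell by 57.7% (log2 fold change -1.24 ± 0.244 SE, edgeR adjusted p = 0.003). Adcy6 had a log2 fold change of 0.03, with a 95% interval of -0.25 to 0.31. Adcy9, the cyclase that responds weakly to forskolin, measured 25, 26.3, 24.2 and 24.6 CPM in siPAK4 and 29.9, 29.4, 28.1 and 28.9 CPM in siControl. Both groups were tight and apart, and the fall was small (log2 fold change -0.22 ± 0.0573 SE, edgeR adjusted p = 0.0154). The calls of Adcy2, Adcy4, Adcy7 and Adcy9 ended when libraries were scaled by their totals alone (edgeR adjusted p = 0.0563, 0.116, 0.118 and 0.135, in that order).

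Soluble guanylyl cyclase is a dimer of an alpha and a beta subunit that senses nitric oxide. Both alpha subunit genes fell in siPAK4 while the beta subunit gene Gucy1b1 did not pass the test. Gucy1a1, the main alpha subunit, stood at 4.56, 4.76, 6.99 and 5.38 CPM in siPAK4 and at 11.4, 12.3, 10.2 and 10.8 CPM in siControl. All siPAK4 libraries were below all siControl libraries, with siPAK4 replicate 3 the nearest to them, and it fell by 51.4% (log2 fold change -1.04 ± 0.132 SE, edgeR adjusted p = 0.00016). Gucy1a2, the other alpha subunit, measured 1.9, 2.89, 2.38 and 2.28 CPM in siPAK4 and 4.48, 3.59, 5.46 and 3.8 CPM in siControl. Its CPM too was apart in the groups (log2 fold change -0.87 ± 0.169 SE, edgeR adjusted p = 0.0027). The TPM of Gucy1a2 overlapped, at 0.319 to 0.571 TPM in siPAK4 and 0.56 to 0.854 TPM in siControl. Its call held in 17 of 18 alternative fits. Gucy1b1, chosen after its values were seen, read 4.22, 4.69, 3.53 and 3.65 CPM in siPAK4 and 4.01, 4.31, 4.33 and 4.07 CPM in siControl. The siPAK4 values spanned the siControl values, and the 95% interval of its log2 fold change, -0.06, ran from -0.32 to 0.20.

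On the length-scaled values the subunits changed their balance. The alpha transcripts together amounted to 0.849, 0.862, 1.52 and 1.17 times the Gucy1b1 level in siPAK4 and to 2.22, 2.16, 1.94 and 2.05 times in siControl. The ratios did not overlap, with means of 1.1 ± 0.318 in siPAK4 and 2.09 ± 0.124 in siControl (SD, n = 4 each), and siPAK4 replicate 3 was again the nearest to siControl. The summed level of the 3 subunits was 5.62 ± 0.464 TPM in siPAK4 and 8.46 ± 0.473 TPM in siControl (SD, n = 4 each). Of the vascular smooth muscle markers, 7 of 10 fell in siPAK4, as did 7 of 10 portal fibroblast and mesothelial markers. So did 6 of 14 tested stellate cell markers, where 14.5% of all genes tested fell. Des is on both the smooth muscle and the stellate cell list. The part of these cell types in the subunit values was not tested.

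Gucy1a1 (chr3:82092427-82145946) and Gucy1b1 (chr3:82032004-82074711) are neighbours on the minus strand of mouse chromosome 3 in build GRCm38.p6, also called mm10, yet only the first was called, while Gucy1a2 lies on chromosome 9 (chr9:3532349-3905791). The sequences that end at the annotated start of Gucy1a2 and of Gucy1b1 are shown because a called and an uncalled subunit can be read side by side. They come from RefSeq (build GRCm38.p6), run 5′ to 3′ on the gene's own strand, and span chr9:3532099-3532348 on the plus strand and chr3:82074712-82074961 on the minus strand. Capitals mark the half-site TGACG of the cyclic AMP response element, read on either strand (so CGTCA where it lies on the other strand).
Gucy1a2: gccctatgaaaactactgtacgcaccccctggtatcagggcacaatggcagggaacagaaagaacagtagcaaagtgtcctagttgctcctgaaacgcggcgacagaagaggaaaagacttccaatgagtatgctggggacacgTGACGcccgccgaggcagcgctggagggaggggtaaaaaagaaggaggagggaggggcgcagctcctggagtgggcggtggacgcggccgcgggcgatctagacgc
Gucy1b1: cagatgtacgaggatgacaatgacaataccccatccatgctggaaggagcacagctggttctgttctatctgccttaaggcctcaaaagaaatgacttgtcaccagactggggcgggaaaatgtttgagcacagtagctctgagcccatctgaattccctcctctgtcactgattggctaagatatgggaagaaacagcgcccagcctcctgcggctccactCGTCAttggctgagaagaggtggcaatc
Each window holds a half-site, 106 to 102 bases before the start in Gucy1a2 and 28 to 24 bases before it in Gucy1b1, so the presence of these letters did not separate these 2 genes. The 2 RefSeq windows of Gucy1a1 held no match.

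Phosphodiesterases moved in both directions, and the most abundant ones did not pass the test. Of 24 genes, 19 were tested: 3 rose, 6 fell and 10 did not pass (47.4% called, beside 26.9% of all genes tested), with a median log2 fold change of -0.12. The summed level was 481 ± 81.7 TPM in siPAK4 and 494 ± 13.5 TPM in siControl (SD, n = 4 each), with siPAK4 replicate 3 low at 368 TPM. Pde2a, which cyclic GMP stimulates and which hydrolyses both nucleotides, made up 52.5% of the sum in siPAK4 and 54.3% in siControl. It measured 551, 452, 358 and 523 CPM in siPAK4 and 508, 512, 503 and 530 CPM in siControl. The siControl libraries were close together and inside the siPAK4 range, whose low end was again siPAK4 replicate 3, and the log2 fold change was -0.12 with a 95% interval of -0.36 to 0.12 (edgeR adjusted p = 0.453). Pde4b, a cyclic AMP-specific enzyme, made up a further 23.8% in siPAK4 and 22.9% in siControl and had a log2 fold change of -0.04 with a 95% interval of -0.20 to 0.12.

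Among the cyclic AMP-specific enzymes of the Pde4, Pde7 and Pde8 groups, Pde7b and Pde8b rose and Pde4d and Pde8a fell. Pde7b stood at 42.3, 36.9, 36.2 and 40.8 CPM in siPAK4 and at 29.6, 23.5, 23.1 and 20.7 CPM in siControl. No library of either group entered the range of the other, and the rise was 1.61-fold (log2 fold change 0.69 ± 0.101 SE, edgeR adjusted p = 0.000464). Its close relative Pde7a had a log2 fold change of 0.10 (95% interval -0.04 to 0.25, edgeR adjusted p = 0.274), and passed only with library totals alone (edgeR adjusted p = 0.0458). Pde7b accounted for 45.4 ± 3.0% of Pde7 transcripts by TPM in siPAK4 and 34.9 ± 3.97% in siControl (SD, n = 4 each), without overlap. Pde8b, a high-affinity enzyme known from steroid-producing and thyroid cells, measured 5.57, 5.19, 6.27 and 6.17 CPM in siPAK4 and 4.39, 4.27, 5.07 and 4.35 CPM in siControl. The ranges came close without overlapping (log2 fold change 0.36 ± 0.108 SE, edgeR adjusted p = 0.0283), and the call was lost without siPAK4 replicates 3 or 4 or siControl replicates 1, 2 or 4 (edgeR adjusted p = 0.0513 to 0.0799).

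Pde4d, one of the targets of the drug rolipram, was at 21.1, 20.4, 16.9 and 17.9 CPM in siPAK4 and at 32.5, 30.2, 29.4 and 28.1 CPM in siControl. The groups were well apart, and it fell by 36.5% (log2 fold change -0.66 ± 0.0822 SE, edgeR adjusted p = 0.00015). Because Pde4b is far more abundant, Pde4d was 3.17 ± 0.104% of Pde4 transcripts by TPM in siPAK4 and 5.09 ± 0.397% in siControl (SD, n = 4 each), and the Pde4 sum was 121 ± 17.0 TPM in siPAK4 and 123 ± 7.08 TPM in siControl. Pde8a read 43.5, 37.4, 38.9 and 42.4 CPM in siPAK4 and 49.8, 46.3, 53.1 and 45 CPM in siControl. All its siPAK4 values were the lower ones, by a small margin (log2 fold change -0.26 ± 0.0722 SE, edgeR adjusted p = 0.0195), and its call ended without siPAK4 replicate 2 or siControl replicate 3 (edgeR adjusted p = 0.064 to 0.0692) and with library totals alone (edgeR adjusted p = 0.0766).

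Of the enzymes that hydrolyse both nucleotides, Pde10a rose while Pde1a, Pde3a and Pde3b fell. Pde10a, best known from striatal neurons, measured 32.1, 29.3, 21.4 and 31.8 CPM in siPAK4 and 21.5, 19.1, 19.9 and 20.6 CPM in siControl. Only siPAK4 replicate 3 lay within the siControl range. With it the log2 fold change was 0.50 ± 0.114 (SE, edgeR adjusted p = 0.00743), and without it 0.61 (edgeR adjusted p = 2.3e-05). Pde1a, which calcium and calmodulin activate, stood at 1.94, 2.35, 1.93 and 1.96 CPM in siPAK4 and at 4.55, 4.75, 5.16 and 4.9 CPM in siControl. It was scarce but tight in both groups and fell by 57.8% (log2 fold change -1.24 ± 0.118 SE, edgeR adjusted p = 2.2e-05). Its relatives Pde1b and Pde1c did not pass the test, and Pde1a was 22.0 ± 3.79% of Pde1 transcripts by TPM in siPAK4 and 37.4 ± 2.56% in siControl (SD, n = 4 each).

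The Pde3 enzymes, which cyclic GMP inhibits, fell modestly. Pde3a, the form of heart and vascular muscle, measured 4.61, 4.81, 5.84 and 5.35 CPM in siPAK4 and 6.65, 6.54, 9.23 and 6.86 CPM in siControl. The groups did not overlap, and siControl replicate 3 stood above the rest (log2 fold change -0.51 ± 0.132 SE, edgeR adjusted p = 0.0144). Pde3b, the form known from fat and liver, read 25.7, 24.8, 21 and 24.9 CPM in siPAK4 and 30.1, 26.1, 32.6 and 27.7 CPM in siControl. Its ranges nearly touched (log2 fold change -0.27 ± 0.0862 SE, edgeR adjusted p = 0.0342). Pde5a, the cyclic GMP-specific target of sildenafil, was at 10.9, 10.4, 10.7 and 10.5 CPM in siPAK4 and at 12.6, 11.9, 12.6 and 12.9 CPM in siControl. Both groups were narrow and apart, by a small step (log2 fold change -0.23 ± 0.0699 SE, edgeR adjusted p = 0.0311). With library totals alone the Pde3b and Pde5a calls ended (edgeR adjusted p = 0.129 and 0.152), as did Pde3b without siPAK4 replicates 2 or 4 or siControl replicates 1 or 3 (edgeR adjusted p = 0.0563 to 0.108) and Pde5a without any library but siPAK4 replicate 3 or siControl replicate 2 (edgeR adjusted p = 0.0505 to 0.0864). Pde9a, a cyclic GMP-specific enzyme chosen after its values were seen, stood at 0.225 to 0.383 CPM in siPAK4 and 0 to 0.197 CPM in siControl and did not pass (log2 fold change 1.4, edgeR adjusted p = 0.0971).

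**Figure D2:**
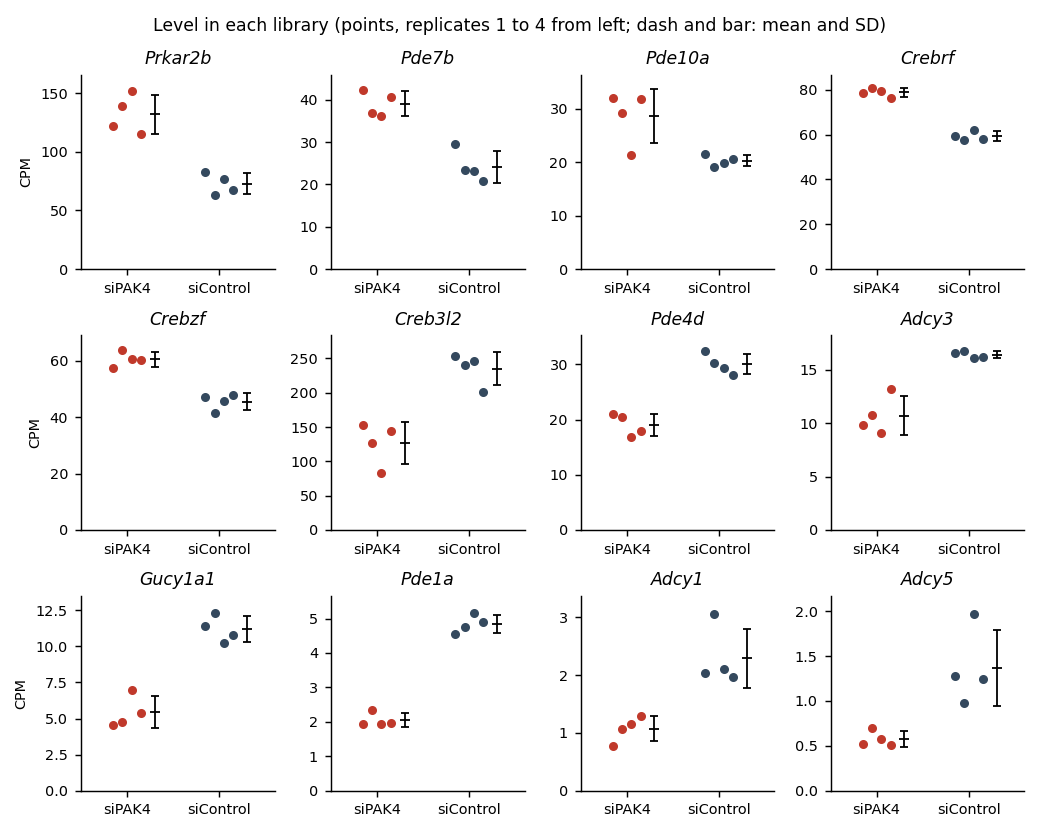
Level of 12 genes in each library, in CPM on axes that start at 0, with siPAK4 (red) left of siControl (dark blue); points are replicates 1 to 4 from left to right, and the dash with its bar is the mean and SD. The 5 genes higher and the 7 genes lower in siPAK4 whose calls held in every alternative are drawn; the groups overlap only for Pde10a, where siPAK4 replicate 3 stands at 21.4 CPM.

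The clearest rise among the PKA genes was that of Prkar2b, the type II-beta regulatory subunit, which is known from fat, brain and granulosa cells. It measured 122, 139, 152 and 115 CPM in siPAK4 and 83.1, 63.3, 77.1 and 67.4 CPM in siControl. Every siPAK4 library exceeded every siControl library, and the rise was 1.81-fold (log2 fold change 0.86 ± 0.102 SE, edgeR adjusted p = 0.000109). The type I-alpha subunit Prkar1a, the most abundant regulatory subunit, stood at 224, 208, 206 and 230 CPM in siPAK4 and at 251, 252, 250 and 237 CPM in siControl. Its CPM was lower in every siPAK4 library, by a small margin (log2 fold change -0.19 ± 0.0548 SE, edgeR adjusted p = 0.0232). Its TPM overlapped, at 116 to 145 TPM in siPAK4 and 131 to 141 TPM in siControl. Prkar2a, the type II-alpha subunit, read 43.6, 39.6, 38.3 and 45 CPM in siPAK4 and 50.6, 48.4, 48.7 and 46.8 CPM in siControl. The CPM of Prkar2a did not overlap either, with a fall of about the same size (log2 fold change -0.22 ± 0.065 SE, edgeR adjusted p = 0.0242). Its TPM did, at 15.7 to 20.3 TPM in siPAK4 and 19.5 to 22.3 TPM in siControl. Prkar1b was scarce and did not pass (log2 fold change 0.23, edgeR adjusted p = 0.218).

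The make-up of the regulatory pool differed accordingly. By TPM, Prkar2b was 33.7, 39.5, 40.7 and 34.1% of regulatory subunit transcripts in siPAK4 and 25.1, 20.3, 23.7 and 21.7% in siControl. These shares did not overlap and averaged 37.0 ± 3.62% in siPAK4 and 22.7 ± 2.11% in siControl (SD, n = 4 each), while Prkar1a supplied 54.2 ± 3.0% in siPAK4 and 66.1 ± 1.99% in siControl. The regulatory sum was 239 ± 14.8 TPM in siPAK4 and 206 ± 11 TPM in siControl, also without overlap. Against the catalytic subunits, the regulatory sum stood at a ratio of 2.3, 2.36, 2.57 and 2.2 in siPAK4 and of 1.9, 1.85, 1.81 and 1.85 in siControl. Every siPAK4 ratio was above every siControl ratio, with means of 2.36 ± 0.155 in siPAK4 and 1.85 ± 0.0378 in siControl (SD, n = 4 each).

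The catalytic subunits themselves changed little. Prkacb, the more abundant of the pair, measured 120, 114, 115 and 122 CPM in siPAK4 and 132, 127, 142 and 133 CPM in siControl. Its CPM was slightly lower in all siPAK4 libraries (log2 fold change -0.18 ± 0.0529 SE, edgeR adjusted p = 0.0235). Prkaca had a log2 fold change of -0.15 (95% interval -0.30 to -0.01, edgeR adjusted p = 0.118), and its pseudogene Prkaca-ps1 may share reads with it. Prkg1, the PKG of smooth muscle and platelets, stood at 15.5, 15.4, 16.7 and 15 CPM in siPAK4 and at 20, 17, 19 and 18.4 CPM in siControl. The highest siPAK4 value lay just under the lowest siControl value (log2 fold change -0.25 ± 0.072 SE, edgeR adjusted p = 0.0241), and Prkg2 did not pass (log2 fold change -0.24, edgeR adjusted p = 0.289).

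Whether the small falls of Prkar1a, Prkar2a, Prkacb and Prkg1 passed depended on the scaling and on which libraries were used. With 1 library left out, their log2 fold changes ran from -0.22 to -0.17, -0.26 to -0.19, -0.21 to -0.15 and -0.29 to -0.21, in that order. With library totals alone their edgeR adjusted p-values were 0.165, 0.129, 0.170 and 0.104, in that order. The Prkacb call ended without siPAK4 replicate 2 or siControl replicate 3 (edgeR adjusted p = 0.0701 to 0.0807). Those of Prkar1a and Prkar2a ended without siPAK4 replicate 2 or siControl replicates 1, 2 or 3 (edgeR adjusted p = 0.0538 to 0.0825), and that of Prkg1 without any library but siPAK4 replicate 3 and siControl replicates 2 and 4 (edgeR adjusted p = 0.0534 to 0.0673). The fall of Prkar1a passed in 10 of 18 alternative fits, with a log2 fold change of -0.22 to -0.02. The rise of Prkar2b passed in all 18 alternative fits, with a log2 fold change of 0.78 to 0.95.

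**Figure D3:**
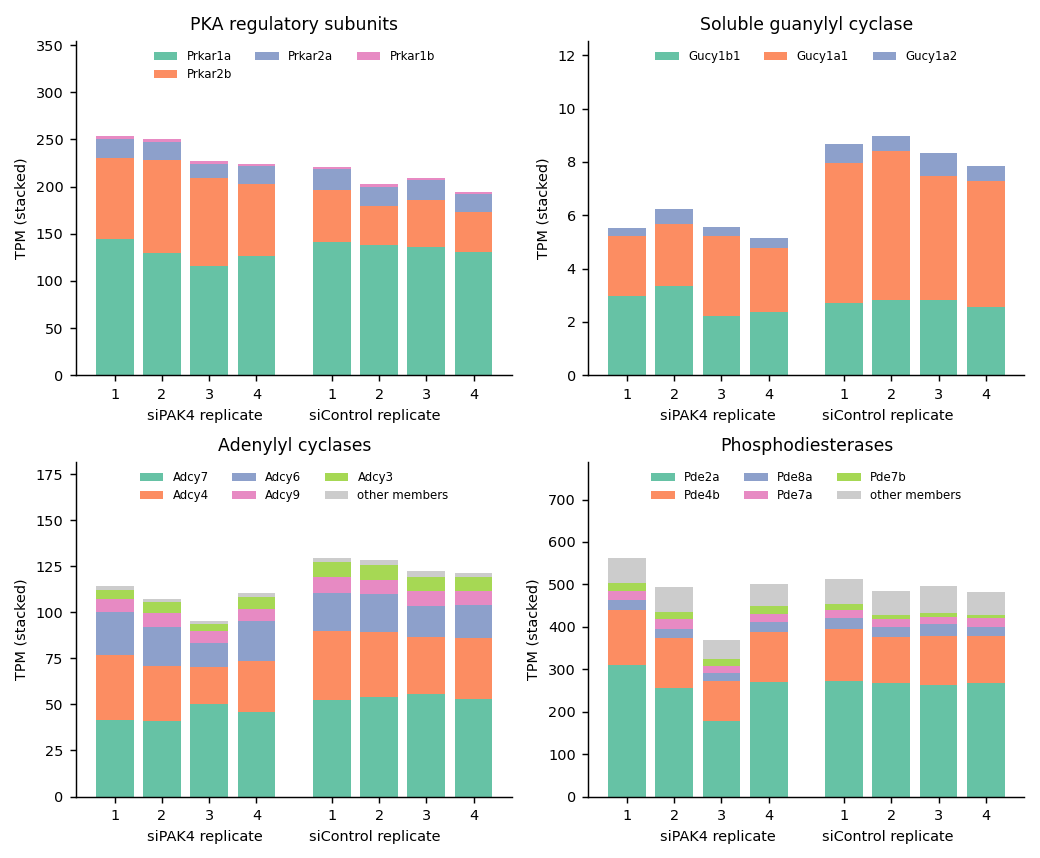
Summed level of 4 enzyme families in each library, in TPM stacked by gene (y axis from 0), with the 4 siPAK4 replicates left of the 4 siControl replicates. Prkar2b takes a larger part of the PKA regulatory bars in siPAK4 (37.0% on average, 22.7% in siControl), the Gucy1a1 part of the guanylyl cyclase bars is smaller in siPAK4, and the phosphodiesterase bar of siPAK4 replicate 3 is the shortest, at 368 TPM.

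The CREB-named factors are a mixed group that shares a name more than a mechanism. Of the 11 genes, 3 rose, Creb3l2 fell and 7 did not pass (36.4% called, beside 26.9% of all genes tested), with a median log2 fold change of -0.02. The 3 that rose, Crebrf, Crebzf and Crebl2, are regulators or relatives of CREB proteins, whereas Creb1, the factor that PKA phosphorylates, had a log2 fold change of -0.10 (95% interval -0.23 to 0.04, edgeR adjusted p = 0.273). Its coactivator Crebbp had a log2 fold change of 0.06 (95% interval -0.21 to 0.34) and Creb5 one of -0.15 (95% interval -0.33 to 0.04), and neither passed.

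Crebrf, a protein known to bind CREB3 and to promote its degradation, measured 78.6, 80.8, 79.7 and 76.5 CPM in siPAK4 and 59.4, 57.5, 62.3 and 58.2 CPM in siControl. Both groups were narrow and far apart (log2 fold change 0.41 ± 0.0503 SE, edgeR adjusted p = 0.000131). Crebzf, an atypical leucine zipper protein that acts as a corepressor, was at 57.3, 64.0, 60.7 and 60.2 CPM in siPAK4 and at 47.2, 41.5, 45.6 and 47.9 CPM in siControl. It rose by the same factor, 1.33-fold, without overlap (log2 fold change 0.41 ± 0.0625 SE, edgeR adjusted p = 0.000582). Crebl2, a small relative of the leucine zipper factors, read 19.7, 19.1, 19.8 and 18.9 CPM in siPAK4 and 14.2, 15.9, 14.8 and 16.1 CPM in siControl. It was higher in every siPAK4 library (log2 fold change 0.34 ± 0.0664 SE, edgeR adjusted p = 0.00269), and passed all but 1 of 18 alternatives, the one on TPM with a pseudocount of 1 (limma adjusted p = 0.0529).

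Creb3l2, a membrane-anchored factor of the endoplasmic reticulum that cleavage releases and that is known to raise secretory pathway genes in cartilage, fell by 46.1%. It stood at 153, 127, 83.3 and 144 CPM in siPAK4 and at 254, 240, 246 and 201 CPM in siControl. The groups were apart, with siPAK4 replicate 3 the lowest (log2 fold change -0.89 ± 0.158 SE, edgeR adjusted p = 0.00198), and without that library the log2 fold change was -0.74 (edgeR adjusted p = 4.1e-05). Creb3, another membrane-anchored factor and the most abundant of the group, measured 66.1, 72.2, 76.6 and 66.1 CPM in siPAK4 and 72.8, 83.6, 81.4 and 83.7 CPM in siControl. Its ranges overlapped at siControl replicate 1 and it missed the threshold (log2 fold change -0.19 ± 0.0675 SE, edgeR adjusted p = 0.0525); it passed in 5 of 18 alternatives, among them DESeq2 (adjusted p = 0.0438) and the fits without siPAK4 replicate 3 (edgeR adjusted p = 0.012) or siControl replicate 1 (edgeR adjusted p = 0.0261). Creb3l1, Creb3l3 and Creb3l4 did not pass. The 5 genes of the Creb3 family summed to 152 ± 14.2 TPM in siPAK4 and 197 ± 10.3 TPM in siControl (SD, n = 4 each), without overlap, and Creb3l2 made up 28.4 ± 6.05% of that in siPAK4 and 38.7 ± 3.32% in siControl.

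Sequence upstream of 3 of these genes is shown because a pair that rose together (Crebrf and Crebzf) and a gene that fell (Creb3l2) can be compared. It is from RefSeq, build GRCm38.p6, written 5′ to 3′ on the gene's strand and stopped before the first annotated transcribed base: chr17:26715400-26715593 (plus strand), chr7:90442531-90442728 (plus strand) and chr6:37442277-37442398 (minus strand). Capitals mark the half-site TGACG or its reverse complement CGTCA.
Crebrf: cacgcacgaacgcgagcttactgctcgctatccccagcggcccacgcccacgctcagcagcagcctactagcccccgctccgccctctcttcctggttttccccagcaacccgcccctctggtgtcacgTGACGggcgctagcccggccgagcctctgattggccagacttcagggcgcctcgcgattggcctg
Crebzf: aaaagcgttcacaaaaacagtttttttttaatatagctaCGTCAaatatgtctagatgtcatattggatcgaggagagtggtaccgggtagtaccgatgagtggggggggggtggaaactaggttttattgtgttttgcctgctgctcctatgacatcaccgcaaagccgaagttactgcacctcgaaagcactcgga
Creb3l2: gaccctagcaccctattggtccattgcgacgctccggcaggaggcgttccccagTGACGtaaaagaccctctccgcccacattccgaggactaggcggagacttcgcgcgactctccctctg
Counted to the start on which each 250-base window is anchored, the half-site lies 121 to 117 bases before it in Crebrf, 211 to 207 in Crebzf and 196 to 192 in Creb3l2. These anchoring starts lie inside the annotated gene, downstream of where the printed sequences stop, so the half-sites are nearer to the printed ends. Genes of either direction carry the half-site. RefSeq windows of 250 bases before a start were on hand for 45 of the 57 genes, 88 windows in all. The half-site TGACG, on either strand and counting those inside the full palindrome, was in 22 of these 88 windows (25.0%) and in 17.8% of the 32851 windows of all genes. By gene, at least 1 window held it for 2 of 6 genes that rose, 8 of 18 that fell and 9 of 18 that did not pass, and for 42.2% of the 45 genes, beside 19.8% of all genes; genes with more windows have more chances. The full palindrome TGACGTCA was in 1.55% of all windows and in 2 of the 88. It lay at Creb5, 45 to 38 bases before the start that anchors the window, and at such a start of Prkar1a, 49 to 42 bases before it. A match describes letters in a window and not a bound site.

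**Figure D4:**
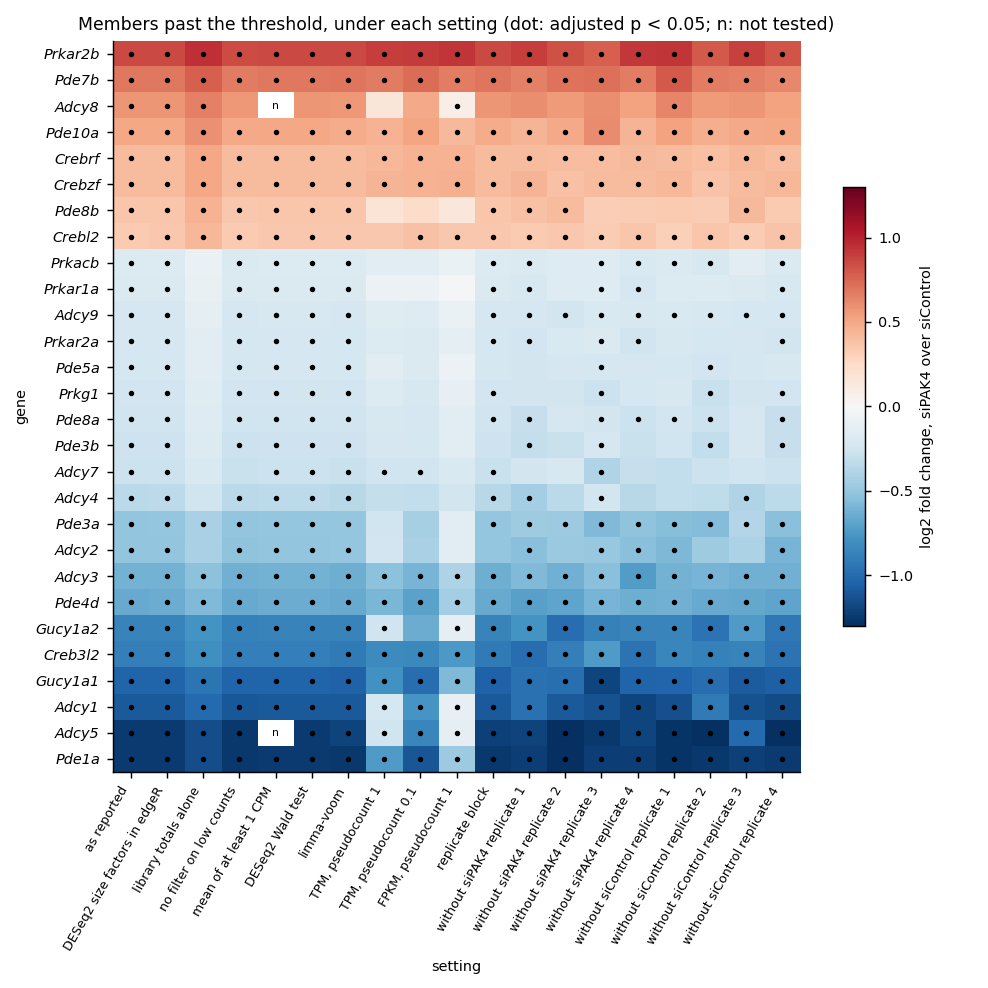
Log2 fold change, siPAK4 over siControl (colour), of the 28 called genes (y axis) under the reported fit and 18 alternatives (x axis), with a dot where the adjusted p was under 0.05 and n where a gene was not tested. The 12 genes with a dot in every setting that tested them, such as Prkar2b and Pde1a, contrast with the band of falls where 11 dots are missing with library totals alone.

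Genes that act beside these enzymes were followed as 7 lists, none of whose members belong to the 57. Over all genes tested, 12.4% were higher, 14.5% lower and 26.9% called in either direction, and each list's share is given beside its count. The lists were drawn up with earlier results of these data known, so their shares are descriptive and were not tested against that of all genes. Among PKA inhibitors and anchoring proteins, 1 of 16 tested genes rose, 6 fell and 9 did not pass (43.8% called, median log2 fold change -0.05). Akap5, which tethers PKA at membranes beside adenylyl cyclase, was at 3.11, 4.01, 4.68 and 3.92 CPM in siPAK4 and at 13.8, 18.9, 15.2 and 13.1 CPM in siControl. Every siPAK4 library was far below every siControl library (log2 fold change -1.95 ± 0.144 SE, edgeR adjusted p = 5e-06). Akap12, a scaffold that binds PKA and adrenergic receptors, averaged 380 ± 66.3 CPM in siPAK4 and 624 ± 12.6 CPM in siControl (SD, n = 4 each; edgeR adjusted p = 0.000551). The PKA inhibitor Pkig fell by 0.52 on the log2 scale (edgeR adjusted p = 0.000475), and Akap13, another anchoring protein, fell by 0.29 (edgeR adjusted p = 0.00449).

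Of 6 tested effectors other than PKA and PKG, Rapgef4, the cyclic AMP-driven exchange factor Epac2, fell (4.31 ± 0.643 CPM in siPAK4, 7.28 ± 0.804 CPM in siControl, SD, n = 4 each; edgeR adjusted p = 0.00116), and the other 5 did not pass (16.7% called, median log2 fold change -0.25). Among those 5 was its relative Rapgef3, which leaned the other way, at 64.2 ± 10.6 CPM in siPAK4 and 53.4 ± 2.12 CPM in siControl. Its log2 fold change was 0.27 (edgeR adjusted p = 0.0803, and 0.0261 with library totals alone). Nitric oxide and natriuretic peptide genes gave 3 rises and 1 fall among 7 tested (57.1% called, median log2 fold change -0.06). Npr1, the membrane guanylyl cyclase that atrial natriuretic peptide activates, stood at 77.7, 68.7, 56.2 and 72.8 CPM in siPAK4 and at 53.8, 49.1, 46.4 and 41.9 CPM in siControl. It was higher in every siPAK4 library, opposite to the soluble alpha subunits (log2 fold change 0.53 ± 0.101 SE, edgeR adjusted p = 0.00273). Gucy2g, another membrane guanylyl cyclase, was scarce and rose (log2 fold change 0.99, edgeR adjusted p = 0.0131), as did Nos2, the inducible nitric oxide synthase (log2 fold change 0.74, edgeR adjusted p = 0.0135, with overlapping groups). Npr2, the receptor of C-type natriuretic peptide, fell by 0.28 on the log2 scale (edgeR adjusted p = 0.0319; 0.128 with library totals alone).

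Among G-protein alpha subunits of adenylyl cyclase and cyclic AMP exporters, 1 of 9 rose, 3 fell and 5 did not pass (44.4% called, median log2 fold change -0.16). Gnas, which encodes the stimulatory alpha subunit, averaged 494 ± 28.7 CPM in siPAK4 and 602 ± 29.8 CPM in siControl (SD, n = 4 each; edgeR adjusted p = 0.00549). Gnai2, an inhibitory alpha subunit, fell by 0.25 on the log2 scale (edgeR adjusted p = 0.0169; 0.0909 with library totals alone), Gnao1 fell by 0.65 at a low level (edgeR adjusted p = 0.0273), and the exporter Abcc5 rose by 0.24 (edgeR adjusted p = 0.0194). Of 11 relatives and coactivators of CREB, Crem, which encodes activators and repressors, fell by 0.19 (edgeR adjusted p = 0.0413, kept in 7 of 18 alternatives), and the other 10 did not pass (9.09% called, median log2 fold change -0.01). The Npr2 call ended without siPAK4 replicate 2 or siControl replicates 1, 2 or 3 (edgeR adjusted p = 0.0682 to 0.0941), that of Gnai2 without siPAK4 replicate 2 or siControl replicate 2 (0.0583 to 0.0611), and that of Abcc5 without those or siControl replicate 3 (0.0569 to 0.0655). The Gnao1 call ended without siPAK4 replicates 2 or 4 or siControl replicates 2 or 3 (edgeR adjusted p = 0.0677 to 0.0769), and the Crem call without any library but siPAK4 replicate 3 and siControl replicate 2 (0.0604 to 0.124).

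Genes known to be induced through CREB, many of which other signals induce as well, gave 9 rises and 3 falls among 27 tested, with 15 that did not pass (44.4% called, median log2 fold change 0.11). The falls were those of Dusp1, Btg2 and Bdnf (edgeR adjusted p = 0.00125, 0.00175 and 0.00628). Beside the rises given below, Areg, Nfil3, Pck1, Ppargc1a and Junb were higher (edgeR adjusted p = 0.00127, 0.000241, 0.0159, 0.0211 and 0.0342, in that order). Nr4a2, Nr4a3, Fos, Egr1 and Per1 were among those that did not pass. So was Nr4a1 (log2 fold change 0.40, edgeR adjusted p = 0.0619, and 0.0256 with library totals alone), whose groups did not overlap. Cebpd, a CCAAT-binding factor, was at 97.3, 99.6, 99.3 and 112 CPM in siPAK4 and at 46.7, 40.2, 36.3 and 49.5 CPM in siControl. It was above siControl in every siPAK4 library (log2 fold change 1.24 ± 0.0924 SE, edgeR adjusted p = 6e-06). Its relative Cebpb averaged 50.9 ± 5.74 CPM in siPAK4 and 30.2 ± 1.43 CPM in siControl (SD, n = 4 each; edgeR adjusted p = 5.9e-05). Dio2, the deiodinase that activates thyroid hormone, averaged 44.5 ± 8.38 CPM in siPAK4 and 19.6 ± 2.53 CPM in siControl (SD, n = 4 each; edgeR adjusted p = 6.3e-05), and Gem, a small GTPase, 8.3 ± 1.89 CPM in siPAK4 and 3.11 ± 0.461 CPM in siControl (edgeR adjusted p = 0.000113). Of the tested PKA and PKG substrates of contractile cells, 2 of 9 rose, 3 fell and 4 did not pass (55.6% called, median log2 fold change -0.09). Mrvi1, the PKG substrate that restrains calcium release, fell by 0.89 on the log2 scale (edgeR adjusted p = 0.000459), Itpr1, the calcium channel it binds, by 0.33 (edgeR adjusted p = 0.00352), and Mylk, the myosin light chain kinase, by 0.31 (edgeR adjusted p = 0.00672). Ppp1r12a, the targeting subunit of myosin phosphatase, rose to 145 ± 2.52 CPM in siPAK4, against 120 ± 4.22 CPM in siControl (SD, n = 4 each; edgeR adjusted p = 0.00165).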

How the data were processed

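The RNA of 8 libraries (4 siPAK4, 4 siControl) was prepared separately per library with a stranded mRNA kit, per the labels. The authors deposited whole-number read counts, FPKM and TPM per gene, per the file headers; the deposited counts carry no normalization, the deposited FPKM adjust for library depth and transcript length, and the deposited TPM in addition share a fixed sum. The submitters' processing notes name HISAT2 2.1.0, StringTie 2.1.3b, Bowtie2 2.3.4.1, FastQC 0.11.7 and bcl2fastq 2.20.0, and build mm10. How reads were counted, with which strand setting, and how shared reads were handled is not given in the sources used here, so overlapping or near-identical genes may share reads. Library names in the header tied every value column to a sample (0 columns unmatched).

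Genes with no read in any library numbered 17287. Genes were kept by filterByExpr (minimum count 10), which left 17975, and siPAK4 was compared with siControl on counts by the quasi-likelihood test of edgeR 4.0.16 in R 4.3.3, with TMM scaling, robust estimation and Benjamini-Hochberg adjustment over all genes tested (threshold 0.05). Standard errors come from the F statistic, and CPM uses the TMM-scaled library size. Levels between genes are compared in TPM only. No pair of libraries of a group agreed within sampling noise (chi-square per degree of freedom 13.9 to 76.2), so none looked like a repeat sequencing of another, and each counted as 1 sample. Whether the libraries are separate animals or cultures cannot be read from this, because separate preparations of 1 culture could differ as well. The procedure was tested on simulated counts. Alternatives were DESeq2 size factors, library totals, 2 other filters on low counts, DESeq2 1.42.0, limma 3.58.1 (voom on counts, and log2 of TPM or FPKM plus a pseudocount), a replicate block and leaving out each library.

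Values in every library are given for genes of the set that passed and averaged at least 1 CPM, and for the most abundant gene of each family, and up to 4 genes per list with the smallest adjusted p are named. Further genes of the CREB-induced list, which rose, fell or did not pass, and Rapgef3 were added after their values were seen. The genes, lists and markers were chosen with earlier results of these data known. Coordinates are RefSeq's on GRCm38.p6, counted from 1. Printed upstream sequence was stopped at the first exon of GENCODE M21 or the RefSeq gene bound.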

Additional observations from a re-analysis of the deposited data

Results flagged for a closer look

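Among the genes given with their values in every library, 6 of 68 groups of 4 libraries held a library far from the other 3, and chance gives about 1 in 20. Adcy1 was at 3.06 CPM in siControl replicate 2 and at 1.96 to 2.1 CPM in the other siControl libraries. Cebpd was at 112 CPM in siPAK4 replicate 4 and at 97.3 to 99.6 CPM in the other siPAK4 libraries. Pde1a was at 2.35 CPM in siPAK4 replicate 2 and at 1.93 to 1.96 CPM in the other siPAK4 libraries. In siControl replicate 3, Pde3a was at 9.23 CPM, against 6.54 to 6.86 CPM in the other siControl libraries, and Pde8b at 5.07 CPM, against 4.27 to 4.39 CPM. Prkar1a was at 237 CPM in siControl replicate 4 and at 250 to 252 CPM in the other siControl libraries. None of these values turned round the direction of its gene when the library was left out.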

How the results depend on the processing

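The count of genes of the set higher in siPAK4, 8, ranged from 6 to 9 over the 18 alternatives. The count lower in siPAK4, 20, was 9 with library totals alone, 9 and 8 on TPM with pseudocounts of 1 and 0.1, 8 on FPKM with a pseudocount of 1, and 10 to 21 with 1 library left out; it was 10 without siPAK4 replicate 2 and 11 without siControl replicate 3. The share of calls that were higher was 28.6%, but 50.0% with library totals alone and 40.0% to 52.9% on TPM or FPKM; over all genes it was 46.1%, 67.6% with library totals alone and 67.7% on FPKM. Of all genes tested, 26.9% were called in the reported fit, 31.9% with library totals alone, 21.2% on TPM and 29.6% on FPKM. The median log2 fold change of all genes was 0.0052, and 0.0938 with library totals alone. Replicate numbers did not pair the libraries: deviations of same-numbered libraries correlated at 0.1, -0.04, 0.17 and -0.1. With the replicate block, 7 were higher and 18 lower; the calls of Adcy2 (adjusted p = 0.0612), Adcy8 (0.09), Pde3b (0.061) and Pde5a (0.0606) ended and that of Creb3 (0.0435) was added. Without siPAK4 replicate 2, 11 calls ended, without siControl replicate 3, 10, and without siPAK4 replicate 3, 2. Over all genes tested, those fits called 19.4%, 20.9% and 30.2%, in that order. No called gene changed sign in any of the fits run. Of the 20 lower genes, 10 fell by under 0.35 on the log2 scale.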
